A study of Mus musculus with 4 samples.

Results

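The 10 genes described here encode enzymes that make, remove or pass on hydrogen peroxide and related peroxides: Cat, Gpx1, Gpx4, Prdx2, Prdx3, Prdx5, Prdx6, Sod1, Sod2 and Txn1. They were chosen by symbol from the 32285 genes in the count tables, and all 10 are listed there once. The study sequenced single cells of mouse tumours in 4 libraries, 2 from tumours labelled Nanocapsule and 2 from tumours labelled Control, and its title names enzyme nanocapsules and T cell immunity. All 4 libraries came from C57Bl6 mice aged 6 to 8 weeks, with tumour as the tissue and cancer cells as the cell type. The tumour line, the enzyme in the capsules, the dose and the number of animals per library are not given in the sources used here, nor is any other treatment of the Control mice. No label says that the libraries came from separate animals, so every p-value below measures the spread between these 4 libraries, which may be technical. The question is which cell classes of the tumour carry the transcripts for peroxide removal, and whether their levels differed between Nanocapsule and Control tumours.

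Superoxide dismutases turn superoxide into hydrogen peroxide, Sod1 in the cytosol and Sod2 in the mitochondrial matrix. Catalase, the product of Cat, breaks hydrogen peroxide down to water and oxygen, mostly inside peroxisomes. Glutathione peroxidases (Gpx1 for soluble peroxides, Gpx4 for lipid peroxides in membranes) draw electrons from glutathione, and most peroxiredoxins (Prdx2 in the cytosol, Prdx3 in mitochondria, Prdx5 in several compartments) draw them from thioredoxin, which Txn1 encodes for the cytosol. Prdx6 is the peroxiredoxin that works with glutathione and also has phospholipase activity.

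Gpx1 and Gpx4 are selenoproteins: a UGA codon, elsewhere a stop signal, is read as selenocysteine in their active site. That codon lies at codon 47 of 201 in Gpx1 (transcript Gpx1-201, chr9:108339451-108339453, plus strand) and at codon 129 of 253 in Gpx4 (transcript Gpx4-201, chr10:80054737-80054739, plus strand) in the GRCm38 annotation, counted from the start codon and with the stop codon left out. The coding stretches around them show what sets these 2 members apart from the other 8, which have no such codon in their active site. The capitals mark the selenocysteine codon.
Gpx1: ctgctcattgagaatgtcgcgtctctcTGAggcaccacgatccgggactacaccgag
Gpx4: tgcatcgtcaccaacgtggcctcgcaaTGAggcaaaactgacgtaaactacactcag

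Each library held between 98943390 and 140491491 unique molecular identifiers (UMIs, counted transcript molecules) in all. After barcodes with at least 1500 UMIs were kept, 9548 cells remained, 2294 and 1577 in the Nanocapsule libraries and 3837 and 1840 in the Control libraries. Of these cells, 6663 fell into melanocytic tumour-like clusters, 1102 into immune or stromal clusters named by their markers, and 1783 into unnamed clusters, most of them shallow. The label "cancer cells" therefore holds for most but not all of the barcodes. Any pair of libraries shared at most 13 cell barcodes. The unit used throughout is the CPM of a class, the counts-per-million value of a gene in the UMIs summed over all cells of that class in one library. It is a share of the RNA captured from the class, and fewer molecules per cell and a larger total per cell cannot be told apart in it. Shares are compared for 1 gene across classes and never between genes.

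**Figure D1:**
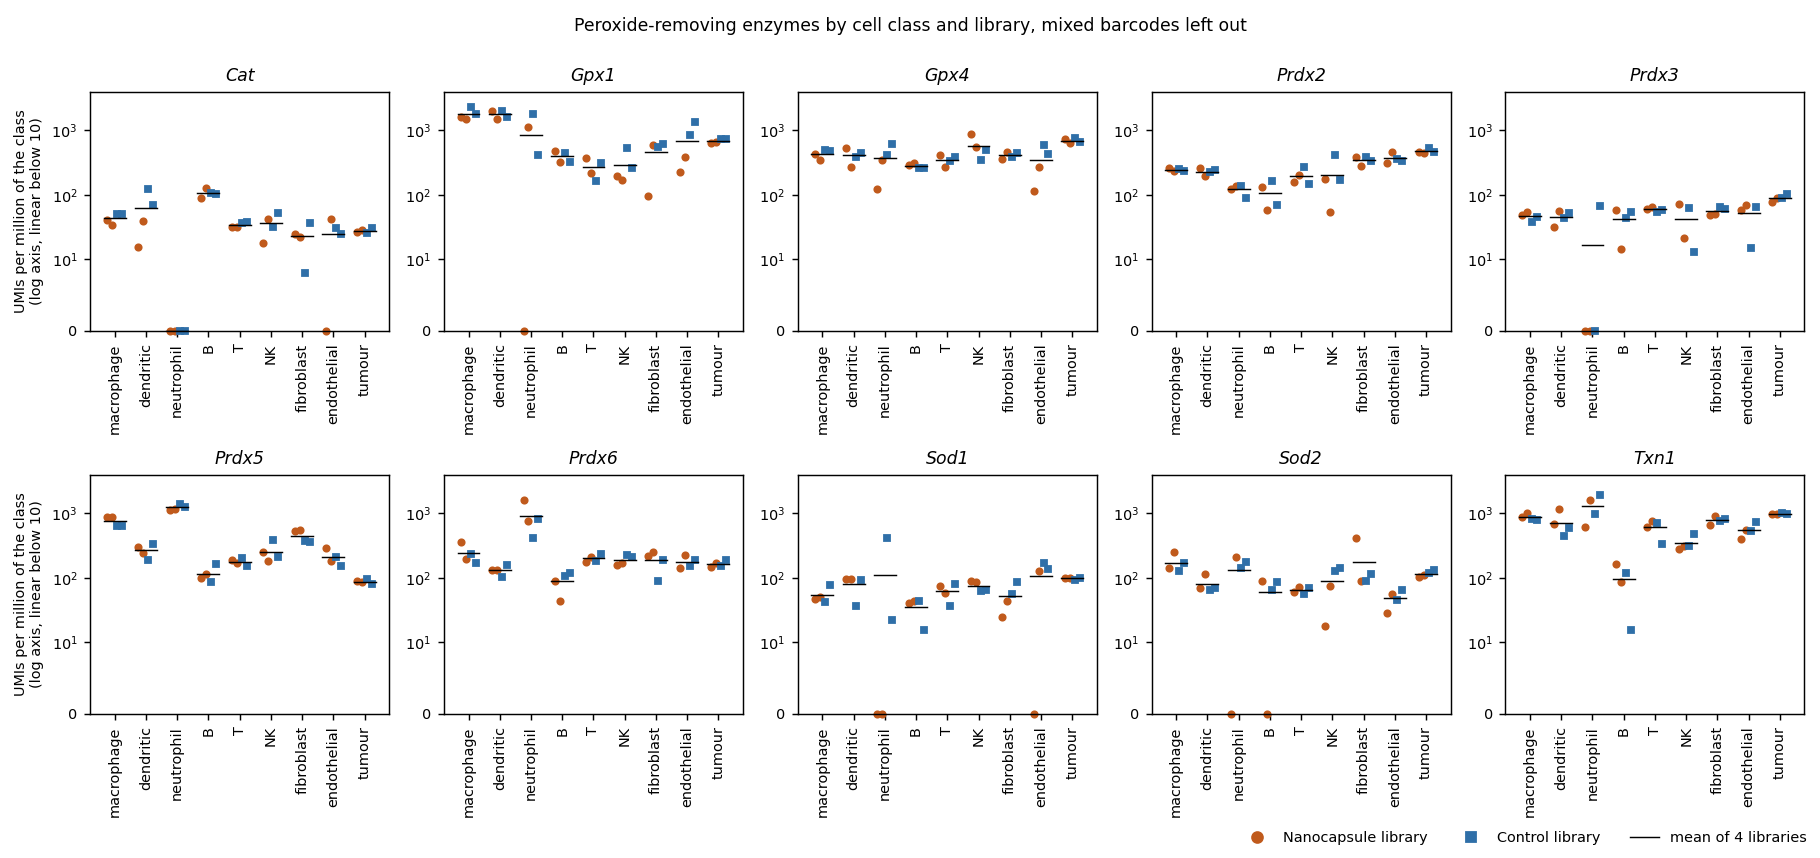
Level of each of the 10 genes (vertical axis, CPM of the class, log scale that is linear below 10) in 9 cell classes (horizontal axis), with circles for the 2 Nanocapsule libraries, squares for the 2 Control libraries and a bar at the mean of the 4. Prdx5 spans from 87.2 CPM in tumour-like to 1236 CPM in neutrophil-like cells (means of the 4 libraries).

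The tumour-like cells are the reference for all classes below, since they hold most of the data. Barcodes with fewer than 100 UMIs, which hold free RNA and no cell, show the level that free RNA alone gives. In them Cat stood at 29.0 and 31.0 CPM in the Nanocapsule libraries and at 30.1 and 31.1 CPM in the Control libraries, next to 26.4 and 28.8 CPM and 26.0 and 30.6 CPM in the tumour-like cells. A further 49 barcodes of the other named classes had a melanocytic marker share above the tumour-like median divided by 4, and are called mixed. Of these, 30 lay in the macrophage-like cluster, where they held 18.5% and 27.7% of the UMIs in the Nanocapsule libraries and 36.9% and 10.9% in the Control libraries. Differences of the members between macrophage-like and tumour-like cells are therefore given with and without them. The levels plotted and ordered over all named classes leave them out. Macrophage-like values of the related genes listed further below include them.

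Catalase transcripts had their highest mean share of RNA in B-like cells among the 9 classes named by clustering. In the B-like cells of the 2 Nanocapsule libraries Cat reached 89.9 and 129 CPM, and in those of the 2 Control libraries 106 and 102 CPM, while tumour-like cells held between 26.0 and 30.6 CPM in all 4. Every B-like value lay above every tumour-like and every macrophage-like value. The dendritic-like range, from 15.7 to 124 CPM, overlapped the B-like one. The difference from tumour-like cells was 1.82 ± 0.26 on the log2 scale (± SE, 4 libraries; adjusted p = 7.08e-07, edgeR quasi-likelihood test with library as a block and Benjamini-Hochberg adjustment), and 50.9% of the 10773 genes tested in that contrast were called. The B-like level rests on 43 UMIs in 157 cells. Per cell the order was the other way round: B-like cells, whose median depth was between 1833 and 3324 UMIs, held 0.296 ± 0.0960 Cat UMIs per cell against 1.93 ± 0.727 per tumour-like cell (SD, n = 4 libraries). Only clusters above a minimum depth could be named tumour-like, so part of this order may come from the naming.

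The remaining 9 enzymes did not share that pattern in B-like cells. Txn1, the cytosolic thioredoxin, had 163 and 85.9 CPM in B-like cells of the Nanocapsule libraries and 116 and 15.7 CPM in those of the Control libraries, against 962 to 996 CPM in tumour-like cells. No B-like library came near the tumour-like range, and the log2 difference was -3.46 ± 0.28 (adjusted p = 1.56e-09, edgeR). Prdx2 (-2.22 ± 0.21), Sod1 (-1.61 ± 0.32), Gpx4 (-1.42 ± 0.17), Prdx3 (-1.05 ± 0.31), Prdx6 (-0.92 ± 0.33), Gpx1 (-0.88 ± 0.15) and Sod2 (-0.86 ± 0.33) were also lower and called. Counts behind several of these were low, with means of 0.0966 Sod1, 0.113 Prdx3 and 0.255 Txn1 UMIs per B-like cell. Prdx5 was not called, at 0.35 ± 0.26 (adjusted p = 0.273, edgeR). In all, 1 of 10 members was called higher in B-like cells, where 20% of all tested genes were, and 8 of 10 lower, where 30.9% were. The median of the 10 was -0.98, and that of all genes tested -0.44. Leaving out 1 library ended the call of Prdx3 (adjusted p = 0.0610 without Nanocapsule 2), of Prdx6 (0.125 without Nanocapsule 2 and 0.0626 without Control 1) and of Sod2 (0.134 without Nanocapsule 2, 0.0945 without Control 1 and 0.0872 without Control 2). Sod2 was also not called by DESeq2 (0.0504), at a clustering resolution of 2.0 (0.0718) or without mixed barcodes (0.0512).

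Macrophage-like cells carried more Prdx5 and Gpx1 than tumour-like cells. Prdx5 stood at 766 and 677 CPM in macrophage-like cells of the Nanocapsule libraries and 447 and 574 CPM in those of the Control libraries, against 89.9 and 84.3 CPM and 94.2 and 80.4 CPM in tumour-like cells. All 4 macrophage-like values exceeded all 4 tumour-like ones by a wide margin, at a log2 difference of 3.01 ± 0.16 (adjusted p = 8.4e-16, edgeR) and 3.47 without the mixed barcodes. Gpx1 stood at 1520 and 1294 CPM in the Nanocapsule and 1761 and 1758 CPM in the Control libraries, against 646 and 653 CPM and 728 and 746 CPM in tumour-like cells, a log2 difference of 1.38 ± 0.13 (adjusted p = 6.15e-11, edgeR) and 1.74 without the mixed barcodes. The groups again did not overlap.

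Cat was 0.67 ± 0.15 higher (adjusted p = 0.000395, edgeR) in macrophage-like cells, with 35.4 and 33.6 CPM in the Nanocapsule and 39.4 and 48.6 CPM in the Control libraries. Without the mixed barcodes these 4 values were 40.5, 34.2, 49.9 and 51.3 CPM and the difference 0.99. Sod2, the mitochondrial dismutase (0.61 ± 0.18), and Prdx6 (0.59 ± 0.19) were also called higher, and without the mixed barcodes they came to 0.92 and 0.86. Prdx3 (-0.54 ± 0.15), Prdx2 (-0.53 ± 0.14) and Sod1 (-0.39 ± 0.15) were called lower, with -0.57, -0.59 and -0.51 without those barcodes. Gpx4 was not called by edgeR with all barcodes (-0.28 ± 0.13, adjusted p = 0.0551) and was called lower without the mixed ones (-0.33, adjusted p = 0.0243). Txn1 was called in neither case (0.03 ± 0.18, adjusted p = 0.911, and 0.18 without the mixed barcodes, adjusted p = 0.329). Thus 5 of 10 members were higher, where 27.8% of all tested genes were, and 3 of 10 lower, where 35.8% were, with 63.6% of genes called in either direction. The median of the members was 0.31 and that of all genes -0.17. That overall median moved to -0.37 with plain library sizes in place of TMM factors, and all macrophage-like differences move down with it. Prdx6 was no longer called without Nanocapsule 1 (adjusted p = 0.191, edgeR), at a minimum of 3000 UMIs (0.129) or at a stricter minimum set per library from its deepest barcodes (0.505), Sod1 lost its call without Control 1 (0.269), without Nanocapsule 1 (0.0737) or without Nanocapsule 2 (0.181), and Prdx3 lost it without Control 1 (0.115).

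T/NK-like cells, the T-like and NK-like clusters summed, were lower than tumour-like cells in most of the set. The sums are mostly T-like, with 1281525 UMIs from T-like and 259171 from NK-like cells. Gpx1 had 346 and 215 CPM in T/NK-like cells of the Nanocapsule libraries and 302 and 304 CPM in those of the Control libraries, at most 346 CPM where no tumour-like library was under 646 CPM. The log2 difference was -1.26 ± 0.14 (adjusted p = 3.29e-09, edgeR). Prdx2 (-1.31 ± 0.16), Txn1 (-0.86 ± 0.19), Gpx4 (-0.82 ± 0.14), Sod2 (-0.70 ± 0.23), Prdx3 (-0.64 ± 0.20) and Sod1 (-0.50 ± 0.19) were lower as well. NK-like cells alone overlapped the tumour-like range for Gpx4 (348 to 868 against 632 to 775 CPM). They also did for Sod2 (17.7 to 142 against 103 to 131 CPM), so these 2 calls do not describe NK-like cells. Prdx5 was the only member called higher, with 198 and 171 CPM in the Nanocapsule and 267 and 161 CPM in the Control libraries and a difference of 1.09 ± 0.18 (adjusted p = 9.13e-06, edgeR). Cat (0.32 ± 0.23, adjusted p = 0.227) and Prdx6 (0.29 ± 0.22, adjusted p = 0.268) were not called. Of the 10, 1 was called higher (26.1% of all genes) and 7 lower (33.2% of all genes), with 59.4% of genes called in either direction. Leaving out 1 library ended the call of Sod1 (adjusted p = 0.231 without Nanocapsule 2, and also 0.12 without Control 1 and 0.0819 without Nanocapsule 1; at most 10% mitochondrial UMIs gave 0.0585), of Sod2 (0.1 without Nanocapsule 1 and 0.0696 without Control 1) and of Prdx3 (0.084 without Control 2).

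**Figure D2:**
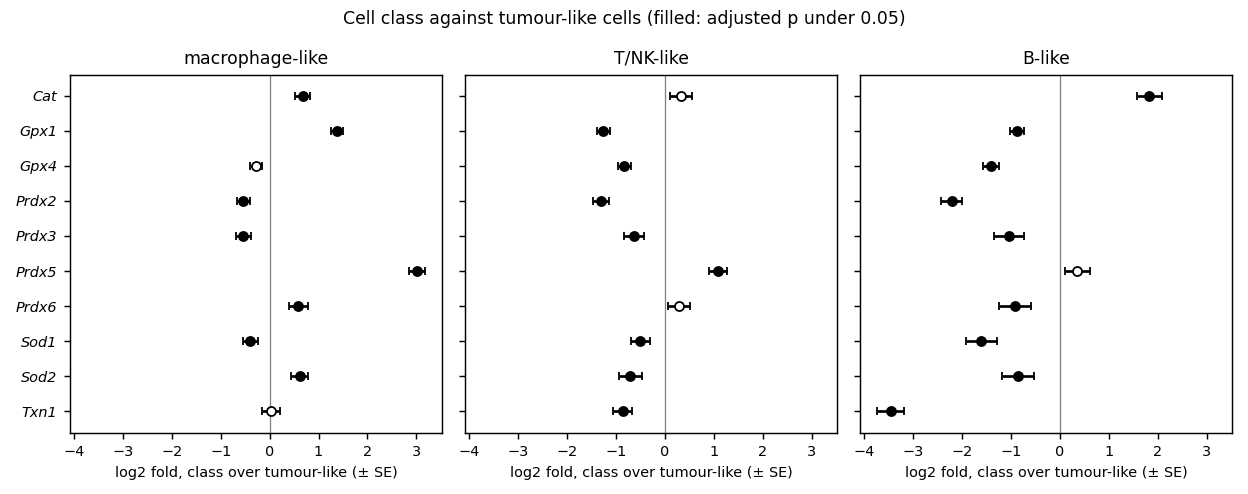
Log2 difference of each gene (horizontal axis, class over tumour-like cells, bars ± SE from edgeR over 4 libraries) in macrophage-like, T/NK-like and B-like cells, with filled points where the adjusted p was under 0.05. Prdx5 lies at 3.01 in macrophage-like cells, Cat at 1.82 in B-like cells, and Txn1 at -3.46 in B-like cells.

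Classes with under 20 cells in some library are described by their levels alone, with mixed barcodes left out. Neutrophil-like cells (29 cells, 76600 UMIs in all) had the top mean of Prdx5, with 1110 and 1184 CPM in the Nanocapsule and 1395 and 1256 CPM in the Control libraries, all above every macrophage-like value. Prdx6 was also highest there, at 1603 and 766 CPM in the Nanocapsule and 418 and 815 CPM in the Control libraries, against at most 360 CPM in macrophage-like cells. No Cat UMI was seen in neutrophil-like cells, which allows a level of up to 39.2 CPM (3 counts over the 4 libraries together, counting error only), above the tumour-like level, so a lower level than in tumour-like cells was not detectable at this depth. Dendritic-like cells had Gpx1 at 2003 and 1531 CPM in the Nanocapsule and 1983 and 1608 CPM in the Control libraries, overlapping the macrophage-like range of 1533 to 2275 CPM. Their Cat level was uneven, at 15.7 and 39.3 CPM in the Nanocapsule and 124 and 69.2 CPM in the Control libraries, and rested on 70 UMIs. The class is mixed: at a clustering resolution of 2.0 a plasmacytoid dendritic-like cluster of 34 cells was named apart. It had 4 and 5 cells in the Nanocapsule and 9 and 16 in the Control libraries, and its part in the Cat level was not tested.

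When the 9 classes were ordered by their mean for each of the 10 genes, 69 of the 80 neighbouring pairs overlapped in the range of their 4 libraries, so the order is loose. Of the 11 pairs counted as apart, 1 rests on the count of 0 for Cat in neutrophil-like cells. For Cat it ran B-like (107 CPM), dendritic-like (61.9), macrophage-like (44.0), NK-like (35.9), T-like (34.6), tumour-like (28.0), endothelial-like (24.4), fibroblast-like (22.7) and neutrophil-like (0), and among these neighbours the ranges were apart between T-like and tumour-like. That gap was narrow, from at most 30.64 CPM in tumour-like to at least 31.65 CPM in T-like cells. The T-like level rested on 43 Cat UMIs in 162 cells, and Cat was not called in T/NK-like cells. The place of neutrophil-like cells is not settled, since their 0 allows up to 39.2 CPM. For Prdx5 the first 4 classes did not overlap: neutrophil-like (1236 CPM), macrophage-like (753), fibroblast-like (449) and dendritic-like (265), and tumour-like cells were last (87.2). Tumour-like cells ranked first for Gpx4 (696 CPM), Prdx2 (477 CPM) and Prdx3 (89.96 CPM), and for Prdx3 every tumour-like library exceeded every library of the next class, T-like (59.4 CPM). Per cell, tumour-like cells held the most UMIs of 9 of the 10 members, among them 65.9 ± 20.7 of Txn1 against 13.2 ± 6.26 per macrophage-like cell. Mixed barcodes are included in these figures per cell. The exception was Prdx5, at 9.41 ± 4.74 UMIs per macrophage-like cell and 5.82 ± 1.58 per tumour-like cell (SD, n = 4 libraries). The minimum depth for naming a cluster tumour-like, which the other classes did not have, favours tumour-like cells in counts per cell.

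Barcodes rich in globin, whether or not they were kept as cells above, held the largest shares of 3 members. Barcodes with at least 500 UMIs, of which at least 20% came from the 4 adult globin genes, numbered 215 and 3 in the Nanocapsule libraries and 5 and 6 in the Control libraries, and are called erythroid-like here. They also held transcripts of Alas2, the first enzyme of haem synthesis in red cell precursors (27000 and 12810 CPM in the Nanocapsule and 17300 and 10680 CPM in the Control libraries). The 3 libraries with few such barcodes gave wide counting intervals, and nearly all of the data come from Nanocapsule 1, so no comparison of treatments was made in them.

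Cat in erythroid-like barcodes stood at 1024 and 1098 CPM in the Nanocapsule and 1153 and 949 CPM in the Control libraries, from 161, 3, 4 and 4 UMIs. The exact Poisson 95% intervals, which cover counting error only, ran from 872 to 1195 CPM in Nanocapsule 1, from 226 to 3209 in Nanocapsule 2, from 314 to 2953 in Control 1 and from 259 to 2430 in Control 2. The ratio to tumour-like cells was 38.8 in Nanocapsule 1, 38.1 in Nanocapsule 2 (interval 7.85 to 112 from its 3 UMIs), 44.4 in Control 1 and 31.0 in Control 2, and the lower bound of each interval lay above the tumour-like and B-like levels of that library. Gpx1 reached 15550 and 27820 CPM in the Nanocapsule and 30280 and 12810 CPM in the Control libraries, 17.2 to 42.6 times the tumour-like level. Prdx2, one of the most abundant proteins of red cells, stood at 2691 and 2562 CPM in the Nanocapsule and 3172 and 2373 CPM in the Control libraries, 5.07 to 5.90 times the tumour-like level.

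The other 7 members were lower than in tumour-like cells in Nanocapsule 1. In that library, which holds most of the counts, Txn1 was at 242 CPM, Gpx4 at 223 CPM, Sod2 at 57.3 CPM, Prdx6 at 44.5 CPM, Prdx3 at 38.2 CPM, Prdx5 at 31.8 CPM and Sod1 at 19.1 CPM, 0.194 to 0.555 times the tumour-like level. For Prdx3 and Sod2 the counting interval of that ratio reached 1.08 and 1.05, and Sod1 rested on 3 UMIs (ratio interval 0.0399 to 0.566). In each of the other 3 libraries these 7 genes had 0 to 2 UMIs, where a count of 0 allows up to 1098 CPM in Nanocapsule 2, 865 CPM in Control 1 and 712 CPM in Control 2. The melanocytic marker share of these barcodes was 6.82% of the tumour-like level in that library. Globin made up 39.9% of their UMIs there. With globin left out of the total, the levels in that library were 1704 CPM for Cat, 25880 for Gpx1 and 4478 for Prdx2, and 402 for Txn1, 370 for Gpx4, 95.3 for Sod2, 74.1 for Prdx6, 63.5 for Prdx3, 52.9 for Prdx5 and 31.8 for Sod1. On that scale too the first 3 were above and the other 7 below the tumour-like level, Sod2 by little (103 CPM in tumour-like cells). Per barcode, Cat came to 0.749 UMIs in Nanocapsule 1, at a median depth of 670 UMIs. With globin shares of 10% or 30% as the limit, chosen after the data were seen, Cat in Nanocapsule 1 was 980 and 999 CPM.

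**Figure D3:**
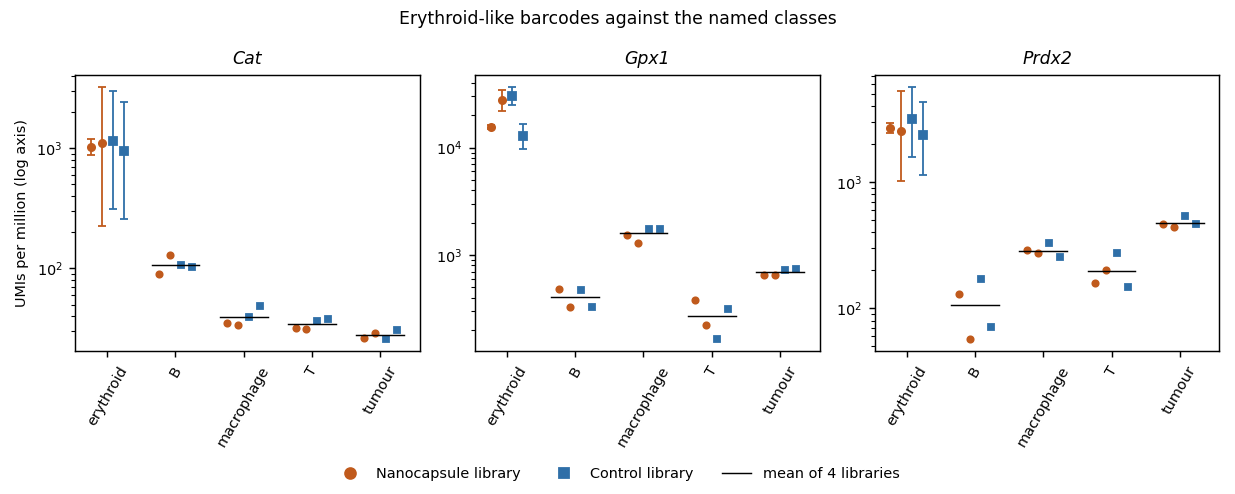
Cat, Gpx1 and Prdx2 (vertical axis, CPM, log scale) in erythroid-like barcodes with exact Poisson 95% intervals and in 4 named classes, by library, circles for Nanocapsule and squares for Control, bars at the mean of the 4 libraries. All 4 erythroid-like points lie above every point of the other classes for each gene, with Cat between 949 and 1153 CPM. The points of the named classes include mixed barcodes.

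The promoters of these 3 genes are shown because the genes were high together in erythroid-like barcodes. They are the 300 bases from 250 before to 50 after the start of the gene, from RefSeq on GRCm38.p6, where 9 of the 10 members have an entry and Prdx6 has none. The capitals mark the letters CACCC, the core of the element that erythroid Krüppel-like factors bind, or GGGTG where the other strand holds it. Cat lies at chr2:103485104-103485403 on the minus strand, Gpx1 at chr9:108338830-108339129 on the plus strand and Prdx2 at chr8:84969372-84969671 on the plus strand.
Cat: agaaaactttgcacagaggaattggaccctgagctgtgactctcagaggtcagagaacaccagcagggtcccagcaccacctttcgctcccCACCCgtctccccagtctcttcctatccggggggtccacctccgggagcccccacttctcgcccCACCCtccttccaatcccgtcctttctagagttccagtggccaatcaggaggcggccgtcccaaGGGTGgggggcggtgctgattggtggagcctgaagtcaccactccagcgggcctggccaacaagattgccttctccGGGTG
Gpx1: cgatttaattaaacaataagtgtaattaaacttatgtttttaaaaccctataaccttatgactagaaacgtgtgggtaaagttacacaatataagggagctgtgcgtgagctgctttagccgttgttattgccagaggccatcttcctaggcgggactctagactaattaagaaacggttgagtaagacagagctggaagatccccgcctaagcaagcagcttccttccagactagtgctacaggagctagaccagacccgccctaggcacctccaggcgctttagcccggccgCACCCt
Prdx2: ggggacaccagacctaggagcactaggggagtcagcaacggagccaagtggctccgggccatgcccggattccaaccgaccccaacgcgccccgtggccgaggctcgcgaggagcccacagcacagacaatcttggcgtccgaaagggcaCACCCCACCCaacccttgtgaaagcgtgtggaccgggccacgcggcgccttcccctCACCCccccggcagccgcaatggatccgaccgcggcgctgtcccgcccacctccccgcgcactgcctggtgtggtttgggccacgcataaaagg
The window of Cat held 4 matches to CACCC, that of Prdx2 3 and that of Gpx1 1, where 57.5% of the 32851 promoters in the table hold at least 1. Prdx3 (4 matches) and Prdx5 (2 matches), which were low in erythroid-like barcodes, also held it. So did 2 of the 4 windows of Gpx4, which was low there too (1 and 2 matches), and Sod1, Sod2 and Txn1 had none. The erythroid GATA letters AGATAA or TGATAA, on either strand, were in none of the 3 windows, in the other 2 windows of Gpx4 and in 18.6% of all promoters. The antioxidant response letters TGACNNNGC were in none of the 3 either, in that of Sod1, and in 12.4% of all promoters. CCAAT occurred 4 times in the window of Cat and in 37.4% of promoters. A match describes letters in a window and not a bound site.

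Within the tumour-like cells the members were also compared by cluster. The 10 clusters were made without the members and without the related genes listed below, so the members' values are not part of how the clusters were drawn. Cluster 17, led by the non-coding RNAs Gm26917 and Neat1 and holding 114 cells, was lowest for all 10 members, with Gpx1 at 146 and 96.1 CPM in the Nanocapsule and 118 and 79.9 CPM in the Control libraries. Among the other 9 clusters, Cat was highest in cluster 2 (led by Mgll), with 32.4 and 33.0 CPM in the Nanocapsule and 30.5 and 35.4 CPM in the Control libraries, and lowest in cluster 5 (with Fam162a and the hypoxia gene Bnip3 among its leading genes), with 24.6 and 21.9 CPM and 22.2 and 22.2 CPM. The 2 clusters did not overlap, at a ratio of means of 1.44, but they were picked as the extremes of the 9.

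Cluster 3, led by Pgf and Nppb and holding the hypoxia genes Ndrg1 and Ero1l, had the lowest Txn1, Prdx3, Prdx6 and Gpx4 of those 9. Txn1 there was 761 and 758 CPM in the Nanocapsule and 756 and 722 CPM in the Control libraries, against 1245 and 1094 CPM and 1204 and 1139 CPM in cluster 1, which was led by Rhox5 and Cdc20. Prdx3 in cluster 3 was 61.9 and 68.9 CPM in the Nanocapsule and 58.0 and 70.4 CPM in the Control libraries, against 109 and 122 CPM and 119 and 129 CPM in cluster 1. Gpx1 was highest in cluster 14, led by the interferon-induced GTPase Iigp1 (876 and 966 CPM in the Nanocapsule, 853 and 789 CPM in the Control libraries), and lowest of the 9 in cluster 9, led by the stress hormone gene Fgf21 (449 and 364 CPM, and 607 and 518 CPM). Gpx4 had its top mean in that same cluster 9, at 911 ± 37.0 CPM (SD, n = 4). For Sod1 and Sod2 the highest and the lowest of the 9 clusters overlapped. No test was run between clusters. The highest and lowest were picked by mean for each gene, which favours ranges that lie apart. No share of all genes with such a separation is given, so it says nothing particular about the members.

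**Figure D4:**
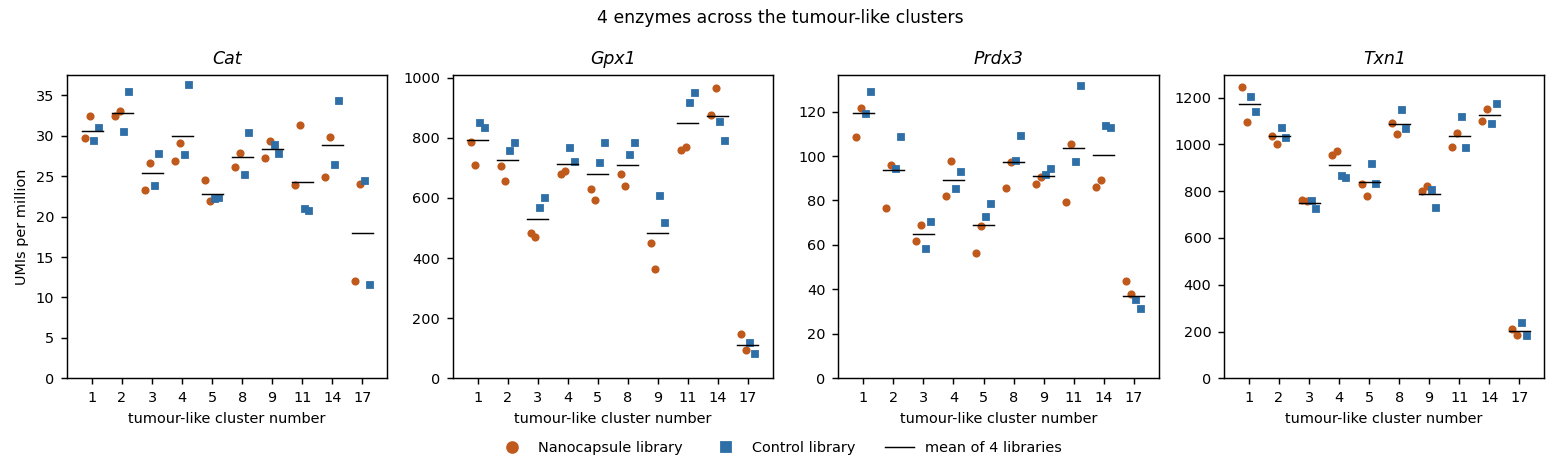
Level of Cat, Gpx1, Prdx3 and Txn1 (vertical axis, CPM from 0) in the 10 tumour-like clusters (horizontal axis, cluster number), circles for the Nanocapsule and squares for the Control libraries, bars at the mean of the 4. Cluster 17 is lowest in each panel, and for Txn1 cluster 3 (749 CPM) lies under cluster 1 (1171 CPM).

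Nanocapsule and Control libraries were then compared within each class with enough cells. With 2 libraries set against 2 and no further term in the fit, none of the 10 members was called by edgeR in tumour-like, macrophage-like, T/NK-like or B-like cells, where 0%, 0%, 0% and 0.153% of all genes tested were called. The number of genes with an unadjusted p under 0.05 was 1195 of 16188 in tumour-like, 151 of 9683 in macrophage-like, 426 of 5577 in T/NK-like and 95 of 1955 in B-like cells. DESeq2 called 88, 3, 3 and 0 genes in these classes, none of them a member. A p above the threshold does not show equal levels.

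In tumour-like cells Sod2 had the smallest p of the members. It stood at 103 and 110 CPM in the Nanocapsule and 118 and 131 CPM in the Control libraries, without overlap, a log2 difference of -0.21 ± 0.07 (adjusted p = 0.668, edgeR). Prdx3 (-0.21 ± 0.09), Gpx1 (-0.18 ± 0.09) and Prdx2 (-0.15 ± 0.12) had larger errors relative to their size. Cat came to 26.4 and 28.8 CPM in the Nanocapsule and 26.0 and 30.6 CPM in the Control libraries, at -0.03 ± 0.08, and the groups overlapped. Both Nanocapsule libraries were below both Control libraries for Gpx1, Prdx2, Sod2 and Txn1 and above them for no member, where 16.2% of the 17579 genes with at least 20 UMIs were below and 18.9% above. The median of the 10 differences was -0.08, beside 0.00 for all genes.

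In macrophage-like cells Prdx5 was 0.60 ± 0.26 higher on the log2 scale with nanocapsules (adjusted p = 1, edgeR). Its levels, 766 and 677 CPM in the Nanocapsule against 447 and 574 CPM in the Control libraries, did not overlap, and without the mixed barcodes they were 880 and 867 CPM against 632 and 634 CPM. The mixed barcodes held more of the class in Control 1 than in any other library, as given above, and without them the difference was 0.57. Leaving out 1 library gave 0.39 to 0.80. In tumour-like cells the same contrast of Prdx5 was 0.00 ± 0.12, and the difference between both effects was 0.57 ± 0.28 (adjusted p = 1, edgeR interaction term). Prdx6 was at 0.54 ± 0.38, but rested on Nanocapsule 1, without which it was -0.11. Cat stood at -0.27 ± 0.27, Gpx1 at -0.22 ± 0.25 and Sod2 at 0.31 ± 0.29. Without the mixed barcodes Prdx6 came to 0.58, Cat to -0.35, Gpx1 to -0.27 and Sod2 to 0.50. Both Nanocapsule libraries were above both Control libraries for Prdx3, Prdx5 and Txn1 (8.95% of 10985 genes were) and below them for Cat, Gpx1 and Sod1 (17.0% of genes were).

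In T/NK-like cells Txn1 was at 550 and 708 CPM in the Nanocapsule and 569 and 361 CPM in the Control libraries, a difference of 0.53 ± 0.29 (adjusted p = 0.696, edgeR) with overlapping groups, and of 0.84 without Control 1 and 0.23 without Control 2. Cat was at 29.6 and 33.1 CPM in the Nanocapsule and 34.8 and 40.9 CPM in the Control libraries, at -0.30 ± 0.41. In B-like cells only 7 of the 10 members passed the filter on low counts, and Txn1 came to 1.16 ± 0.68 (adjusted p = 0.985, edgeR), and to 0.15 without Control 2, whose level was 15.7 CPM, 0.46 without Nanocapsule 1 and 2.97 without Control 1. The Control 2 level came from 0.0455 Txn1 UMIs per cell in 44 cells. Cat in B-like cells differed by 0.02 ± 0.43. Both Nanocapsule libraries were above both Control libraries for Prdx3 in T/NK-like cells (18.3% of genes were) and for Gpx4 in B-like cells (16.6%), and below them for Cat and Sod2 in T/NK-like cells (17.3%) and for Prdx6 in B-like cells (16.4%). Some of these orders rest on few counts. Cat had 43 UMIs in T-like and 10 in NK-like cells over all libraries. Prdx6 had 0.143 UMIs per cell in the 21 B-like cells of Nanocapsule 2. The difference of treatment effects against tumour-like cells was not called for any member in macrophage-like, T/NK-like or B-like cells, where 0.0882%, 0.229% and 0.00882% of 11341 genes were.

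**Figure D5:**
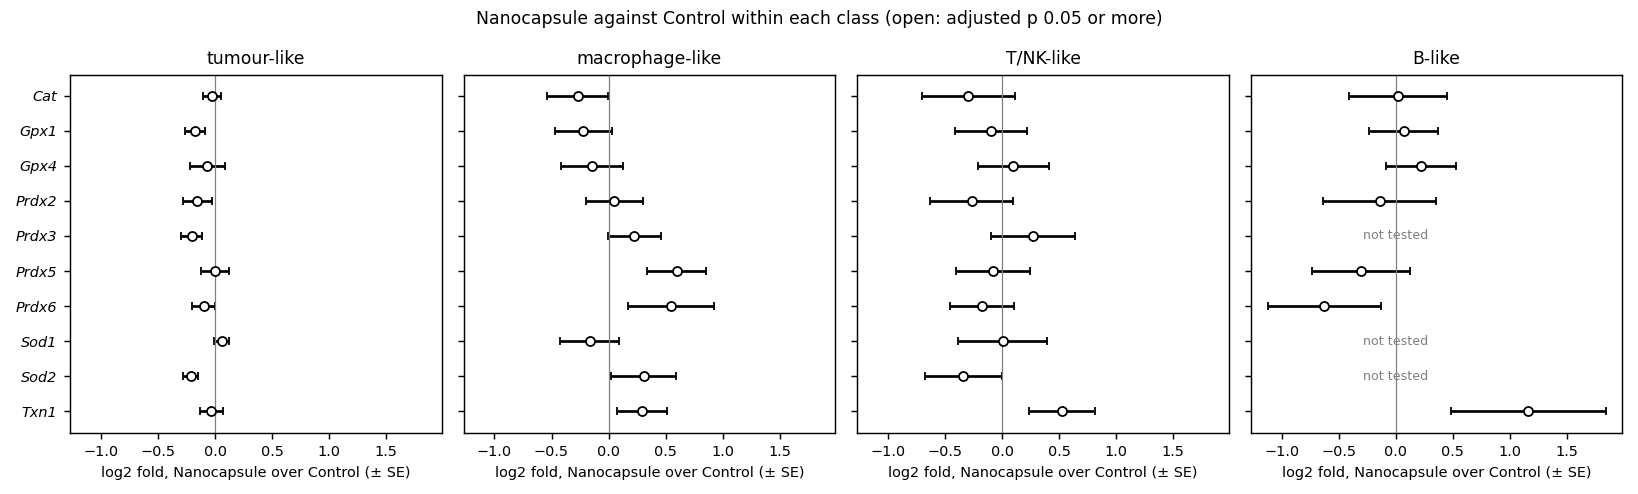
Log2 difference of each gene between Nanocapsule and Control libraries (horizontal axis, one scale for all panels, bars ± SE from edgeR, 2 libraries a group) in tumour-like, macrophage-like, T/NK-like and B-like cells. All points are open because no adjusted p was under 0.05, and the errors widen from tumour-like cells (Cat at -0.03 ± 0.08) to B-like cells (Cat at 0.02 ± 0.43).

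The enzymes around the 10 members differed by class as well, and none of those tested was called between Nanocapsule and Control in any class. In B-like cells that test covered only 1 of 7, 2 of 15, 1 of 8, 6 of 16 and 0 of 14 genes, in the order of the lists below. In T/NK-like cells it covered 3 of 7, 10 of 15, 7 of 8, 5 of 16 and 5 of 14. Of the other peroxidases and dismutases, 5 of 7 were tested between classes. Prdx1, the most widely expressed cytosolic peroxiredoxin, stood at 253 ± 32.1 CPM in B-like and 387 ± 64.5 CPM in T/NK-like cells against 1535 ± 139 CPM in tumour-like cells (SD, n = 4), log2 differences of -2.67 ± 0.20 and -1.99 ± 0.17. Gpx8, of the endoplasmic reticulum, was at 11.4 ± 5.79 CPM in macrophage-like against 53.5 ± 2.99 CPM in tumour-like cells, and no Gpx8 UMI was found in T/NK-like cells, which allows up to 1.95 CPM (3 counts over the 4 libraries together). The macrophage-like level includes the mixed barcodes. It was highest in Control 1 (19.7 CPM), where they held 36.9% of the UMIs, and lowest in Control 2 (6.37 CPM), where they held 10.9%. Their part in this level was not tested. Gpx3, the secreted glutathione peroxidase, was at 15.8 ± 4.28 CPM in macrophage-like against 0.0656 ± 0.0234 CPM in tumour-like cells. Prdx4, the secretory-pathway peroxiredoxin, was 0.63 ± 0.20 higher in macrophage-like and in T/NK-like cells differed by -1.01 ± 0.32. Counts over this list were 2 higher and 1 lower in macrophage-like, 2 higher and 3 lower in T/NK-like, and 1 higher and 3 lower in B-like cells. The higher one in B-like cells was Gpx3, which was at 0 CPM in both Nanocapsule libraries and in Control 2 and at 21.2 CPM in Control 1. For this list and the 4 that follow, the shares of all tested genes called higher and lower were 27.8% and 35.8% in macrophage-like, 26.1% and 33.2% in T/NK-like and 20% and 30.9% in B-like cells, and a count near those shares says nothing particular about a list.

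Of 15 genes that supply thioredoxin and glutathione, 6 were higher and 4 lower in macrophage-like, 2 higher and 10 lower in T/NK-like, and 1 higher and 8 lower in B-like cells. Txnip, which binds and inhibits thioredoxin, was higher in all 3, at 568 ± 170 CPM in B-like, 184 ± 54.5 in T/NK-like and 66.3 ± 18.9 in macrophage-like against 20.3 ± 3.68 CPM in tumour-like cells (SD, n = 4). Its log2 difference in B-like cells was 4.71 ± 0.22 (adjusted p = 7.84e-17, edgeR), where Txn1 was lowest. Macrophage-like cells also had more Gsr, glutathione reductase (102 ± 12.1 against 37.9 ± 4.42 CPM), more Slc7a11, the cystine carrier (56.3 ± 16.6 against 18.3 ± 4.74 CPM), and more of the glutaredoxin Glrx (128 ± 33.1 against 8.72 ± 1.16 CPM). Gclm, a subunit of the enzyme that starts glutathione synthesis, was lower in B-like (83.6 ± 28.0 CPM) and T/NK-like cells (153 ± 47.0 CPM) than in tumour-like cells (304 ± 51.8 CPM).

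Among 8 genes of selenocysteine incorporation, 1 was higher and 3 lower in macrophage-like, 2 higher and 2 lower in T/NK-like, and 0 higher and 2 lower in B-like cells. The higher one in macrophage-like cells was Selenop, the secreted selenium carrier, at 392 ± 187 against 35.2 ± 2.13 CPM in tumour-like cells. Eefsec, the elongation factor for selenocysteine, was lower in macrophage-like (41.2 ± 9.96 CPM), T/NK-like (33.5 ± 2.31 CPM) and B-like (92.0 ± 18.8 CPM) than in tumour-like cells (142 ± 8.02 CPM).

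Of 16 genes that produce superoxide or peroxide, 13 were tested between classes, and 9 were higher and 2 lower in macrophage-like, 7 higher and 3 lower in T/NK-like, and 6 higher and 3 lower in B-like cells. The phagocyte oxidase subunit Cyba stood at 1595 ± 172 CPM in macrophage-like, 926 ± 162 in T/NK-like and 746 ± 47.7 in B-like against 88.3 ± 12.5 CPM in tumour-like cells. Rac2, the GTPase that switches that oxidase on, was at 187 ± 13.97 CPM in macrophage-like, 1251 ± 164 in T/NK-like and 645 ± 16.8 in B-like against 0.142 ± 0.0881 CPM in tumour-like cells. Ncf1, a further subunit, was at 65.8 ± 18.8 CPM in macrophage-like against 0.161 ± 0.133 CPM in tumour-like cells. Ero1l, an endoplasmic reticulum oxidase that makes hydrogen peroxide, was lower in T/NK-like (67.1 ± 30.5 CPM) than in tumour-like cells (462 ± 140 CPM). Of 14 genes of peroxisome import and biogenesis, 12 were tested, and 0 were higher and 4 lower in macrophage-like, 1 higher and 2 lower in T/NK-like, and 0 higher and 2 lower in B-like cells. Abcd3, a peroxisomal membrane transporter, was at 5.62 ± 6.96 CPM in B-like against 67.9 ± 2.84 CPM in tumour-like cells. Its B-like levels were 8.17 and 14.3 CPM in the Nanocapsule and 0 CPM in both Control libraries. Their mean lies under the 7.24 CPM that 3 counts over the 4 libraries together give. The median log2 difference of the list in B-like cells was -0.23, beside -0.44 for all genes, so Abcd3 does not stand for the list.

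The genes whose level followed Cat most closely over the 16 sums of 4 classes in 4 libraries were Siglecg (Pearson r = 0.970), Chst3 (0.965), Ppp3ca (0.965), Cd79b (0.963) and H2-DMb2 (0.960), out of 6982 genes at 20 CPM or more on average. The 16 points share libraries and hold 4 B-like sums that are high together. The same measure put Emilin2 (0.970) and Fcgr3 (0.966) next to Prdx5, Fth1 (0.969) and Neat1 (0.966) next to Gpx1, Dnph1 (0.985) and Swi5 (0.969) next to Prdx2, Hddc2 (0.969) and Gars (0.963) next to Prdx3, and Spcs1 (0.961) and Siva1 (0.960) next to Txn1. The neighbours of Gpx4 were Npdc1 (0.951) and Ndufa8 (0.938), of Prdx6 Grina (0.936) and Tspan5 (0.932), of Sod1 Cdpf1 (0.959) and Siva1 (0.936), and of Sod2 Nus1 (0.968) and Tmem109 (0.962).

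Annotation limits a few of these counts. In the GRCm38 annotation Cat spans chr2:103453849-103485160 on the minus strand and overlaps no other gene. Prdx2 overlaps Rnaseh2a and Junb, Prdx5 overlaps Trmt112 and Sod1 overlaps Scaf4, each on the opposite strand. Processed pseudogenes close in name to Txn1, Prdx2, Prdx6 and Gpx4 are annotated but have no row in the count tables, and the related coding gene Prdx6b has one, so reads shared with these copies are uncertain.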

How the data were processed

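Single-cell RNA was sequenced from 4 mouse tumour libraries, 2 Nanocapsule and 2 Control. The authors deposited whole UMI counts per gene and barcode, unfiltered for cells; the labels' protocols name the 10x Genomics single cell 3' v2 kit, the submitters' processing notes name mm10 and Cell Ranger 2.1.1, and the file headers name Cell Ranger 4, so the version is uncertain. Gene names came from the deposited counts, with positions from an annotation of the same build, in which 32158 of 32285 IDs were found.

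The 10 members, the gene lists and the markers were chosen with earlier results of these data known. Barcodes with at least 1500 UMIs, 200 genes and at most 20% mitochondrial UMIs were kept. They were clustered with scanpy 1.11.5 (2000 variable genes without members and listed genes, 30 components, 15 neighbours, Leiden resolution 1.0, seed 0). A cluster was named where its class markers had a median log2 fold of at least 3 and at least 3 were found in at least 20% of its cells. The rest were tumour-like where the melanocytic markers had at least 2 over the pooled named classes and the depth passed a minimum relative to the library. Shallow clusters past that marker limit stayed unnamed, such as cluster 18 (204 barcodes, log2 fold 3.07). T-like and NK-like cells were summed because T-like cells alone numbered 13 in Control 1, a choice made after seeing the counts. The doublet caller marked 0.136% of cells and was set aside, since mixed barcodes remained.

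Counts were summed per class and library. Classes with at least 20 cells in every library were tested with edgeR 4.0.16 (quasi-likelihood, filterByExpr, TMM, R 4.3.3) and Benjamini-Hochberg adjustment over all genes tested, called at 0.05. Treatment was tested per class, 2 libraries against 2, and class against tumour-like cells with library as a block. DESeq2 1.42.0, other filters on cells and counts, a resolution of 2.0, free RNA subtraction, plain library sizes and leaving out each library were the alternatives, of which plain library sizes were added after seeing the data. The fits were also run on simulated counts whose spread was set by hand. That spread was not estimated from these libraries, so the runs do not show how the fits perform on them. Genes named besides the members are up to 4 called genes per list and class by p, or the 2 most abundant. Intervals cover counting error only.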

Additional observations from a re-analysis of the deposited data

How the results depend on the processing

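No call of a member between a class and tumour-like cells changed direction under any alternative run, and the uncalled Txn1 in macrophage-like cells moved to -0.179 without TMM factors and to between -0.0171 and 0.225 when 1 library was left out. Of the calls, 23 combinations of member and setting were no longer past the threshold, all for Prdx3, Prdx6, Sod1 or Sod2, and the cause was not tested. Gpx4 in macrophage-like cells became a call under 5 settings (for instance -0.328, adjusted p = 0.0243 without mixed barcodes, edgeR).

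Between Nanocapsule and Control, the number of genes called in tumour-like cells was 88 with DESeq2, 6 without a filter on low counts, 1 at the stricter UMI minimum per library and 15 to 108 when 1 library was left out. In macrophage-like cells it was 3, 33 and 0 to 124 (DESeq2, no filter, 1 library left out), in T/NK-like cells 3, 58 and 3 to 52, and in B-like cells 0, 20 and 8 to 29, with 5 after free RNA subtraction. Where a library was left out, the lone library of a group was taken to vary like the others. Differences of treatment effects were called for 2 (macrophage-like) and 3 genes (T/NK-like) with free RNA subtracted, for 22, 51 and 2 with mixed barcodes left out (macrophage-like, T/NK-like, B-like; added after seeing the data), for 44, 74 and 12 without a filter, and for 11 to 45, 0 to 96 and 1 to 23 with 1 library left out. No member was among them. With the replicate block, 600 genes in tumour-like, 3 in T/NK-like and 8 in B-like cells were called, and 1 member, Sod2 in tumour-like cells (-0.214, adjusted p = 0.0451, edgeR). The labels do not say that the replicate numbers pair libraries, and deviations of same-numbered libraries correlated at 0.379 over 15766 genes with only 2 pairs.

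Some uncalled member differences changed sign. Prdx5 was 0.00267 at the stricter UMI minimum and 0.00526 with the replicate block in tumour-like cells and 0.000274 without a filter in T/NK-like cells. Without TMM factors Prdx2 was -0.0476 in macrophage-like and Sod1 -0.0215 in T/NK-like cells. Cat in B-like cells was -0.0268 with free RNA subtracted, -0.00496 without mixed barcodes and -0.001 without a filter. With 1 library left out the ranges were, in tumour-like cells, -0.091 to 0.033 (Cat), -0.24 to 0.126 (Gpx4), -0.302 to 0.0093 (Prdx2), -0.164 to 0.177 (Prdx5) and -0.101 to 0.0388 (Txn1). In macrophage-like cells they were -0.451 to 0.117 (Gpx4), -0.115 to 0.245 (Prdx2), -0.113 to 1.01 (Prdx6) and -0.336 to 0.0289 (Sod1). In T/NK-like cells they were -0.473 to 0.248 (Gpx1), -0.266 to 0.437 (Gpx4), -0.824 to 0.235 (Prdx2), -0.466 to 0.214 (Prdx5), -0.271 to 0.0107 (Prdx6) and -0.144 to 0.624 (Sod1). In B-like cells they were -0.207 to 0.305 (Cat), -0.262 to 0.308 (Gpx1), -0.994 to 0.508 (Prdx2) and -0.661 to 0.278 (Prdx5). T/NK-like and B-like cells could not be fitted at the stricter UMI minimum or at 3000 UMIs.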

Other observations

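The 1783 barcodes in unnamed clusters, which entered no comparison, held Cat at 36.6 and 35.8 CPM in the Nanocapsule and 36.0 and 36.9 CPM in the Control libraries, above every tumour-like value. The largest of those clusters, with 1098 barcodes, was led by the globin genes Hbb-bs, Hbb-bt, Hba-a1 and Hba-a2 and by Alas2, and the part of erythroid RNA in these levels was not tested. Prdx3 in them was 124 and 148 CPM in the Nanocapsule and 135 and 175 CPM in the Control libraries, and Txn1 was 1287 and 1289 CPM in the Nanocapsule and 1321 and 1440 CPM in the Control libraries. Their median depth was between 3368 and 4792 UMIs. Their melanocytic marker share was 47.17% and 48.65% of the tumour-like level in the Nanocapsule and 46.19% and 79.45% in the Control libraries. Shallow melanocytic clusters can thus be among them.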
